A study of Mus musculus with 7 samples.

Results

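Peroxisomes are small organelles that shorten very long-chain, branched-chain and dicarboxylic fatty acids and that make and break down hydrogen peroxide. Expression of 41 genes of the organelle was compared in the livers of mice fed the CDAHFD, a high-fat diet that lacks choline, supplies its amino acids in free form and brings on steatohepatitis. They comprised 13 peroxins, which build the organelle, 22 enzymes of its interior (the matrix) and 6 proteins of its membrane, chosen by name from the 23347 genes in the count table, and all 41 passed the filter on low counts that left 15179 genes tested. Liver RNA was sequenced from 4 control *B4galt1* flox/flox mice, which the sample labels call WT, and from 3 mice labelled B4galt1-HKO, with 1 library per mouse. The former are called controls here and the latter livers labelled hep-/-, short for *B4galt1* hep-/-, the name the study gives to the knockout. In hep-/- mice, a Cre recombinase driven by the albumin promoter removes *B4galt1*, a Golgi galactosyltransferase gene, from hepatocytes, and the counts come from whole liver. The controls were littermates that carried the floxed alleles without Cre. All mice were male, on a C57BL/6 background, young adults when feeding started and fed the CDAHFD for 15 weeks, and chow-fed mice were not analysed here.

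Libraries held 37838654 to 39668509 counts in controls and 30608271 to 34586588 under the hep-/- label, and the least counted of the 41 genes had 172 counts in its lowest library. *B4galt1* itself did not separate the groups. It stood at 48.7, 53.0, 49.2 and 51.6 CPM (counts scaled to a common library size by edgeR's TMM method) in control replicates 1 to 4 and at 28.4, 23.9 and 53.7 CPM in replicates 1 to 3 labelled hep-/- (two-sided exact permutation test of 4 against 3 mice, p = 0.143, where the smallest p possible is 0.0286). By its *B4galt1* level, replicate 3 of the latter thus goes against its label, and the reason was not tested. Directions below are those of libraries that carry the label. Mitochondrially encoded transcripts took 3.88% to 7.996% of counts in control livers and 14.4% to 22.6% in livers labelled hep-/- (exact permutation p = 0.0286). Hepatocyte markers (8 genes) summed to 83350 to 122100 CPM and 94310 to 149200 CPM. Most of this sum was *Alb*, at means of 75054.5 and 91684.2 CPM, so it says little of the other markers. Of the 8, 3 had log2 fold changes below 0 and 5 above, and 1, *Cyp2e1*, was called lower. Macrophage markers (7 genes) summed to 929 to 1900 CPM against 475 to 529 CPM, with 4 of 7 called lower and none at 0. By the rule for calls given below, 7.83% of all genes tested were called lower and 8.0% higher. The part of the marker and mitochondrial differences in the results below was not tested. In whole liver, fewer cells of a type and less RNA per cell cannot be told apart.

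Peroxisomal proteins are made in the cytosol and imported. PEX5 carries cargo with the common C-terminal targeting signal and PEX7 carries the few proteins with the N-terminal one, both dock at a complex of PEX13 and PEX14 in the membrane, and a ubiquitin ligase (with PEX2 and PEX10) and an ATPase (with PEX6, anchored by PEX26) recycle the receptor. PEX3, PEX16 and PEX19 insert membrane proteins, and PEX11 proteins elongate the organelle before division. In rodent liver, many matrix enzymes and some PEX11 genes are known targets of the nuclear receptor PPARα, which binds DNA as a dimer with RXRα.

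The 150 bases before the start site of *Ehhadh*, *Nudt7* and *Pex7* are shown because these were the 3 members called lower in every alternative fit. The sequences are those of RefSeq for GRCm38.p6, 5′ to 3′ on the strand of the gene, with capitals for CCAAT boxes (CCAAT or its reverse complement) and GC boxes (GGGCGG or its reverse complement).
*Ehhadh*, chr16:21787835-21787984, minus strand: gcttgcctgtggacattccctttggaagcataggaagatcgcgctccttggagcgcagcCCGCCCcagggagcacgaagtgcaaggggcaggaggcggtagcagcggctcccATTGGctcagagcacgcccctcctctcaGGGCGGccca
*Nudt7*, chr8:114133468-114133617, plus strand: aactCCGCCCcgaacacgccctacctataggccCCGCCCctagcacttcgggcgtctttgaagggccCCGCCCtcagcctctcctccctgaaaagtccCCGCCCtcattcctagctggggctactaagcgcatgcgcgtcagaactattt
*Pex7*, chr10:19907675-19907824, minus strand: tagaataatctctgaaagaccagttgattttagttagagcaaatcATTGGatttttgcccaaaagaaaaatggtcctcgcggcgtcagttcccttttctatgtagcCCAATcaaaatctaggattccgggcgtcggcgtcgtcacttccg
The stretch of *Ehhadh* held 1 CCAAT box and 2 GC boxes, that of *Nudt7* (shown for 1 of its 2 start sites) 4 GC boxes, and that of *Pex7* 2 CCAAT boxes. Of the 41 genes, 33 had a promoter in the RefSeq table, of 250 bases before and 50 after the start. Over these windows and both strands, 23 of the 33 held a GC box and 18 a CCAAT box, where 35.7% and 37.4% of all 32851 promoters did. The PPAR element, a direct repeat written AGGNCANAGGNCA, matched in none of the 33 and in 0.381% of all promoters. With so low a share, none of 33 carries little information, and sites outside these windows were not searched. The single unit AGGTCA of the direct repeat matched in 6 (*Acot3*, *Acot4*, *Cat*, *Pex11g*, *Phyh* and *Scp2*) and in 16.3% of all. A gene with several start sites was counted if any of them matched, so the shares per gene and per promoter are not on equal terms.

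Peroxisome genes leaned towards lower expression in livers labelled hep-/-, and few passed the test. A gene was called when its adjusted p was under 0.05 (edgeR's quasi-likelihood test, Benjamini-Hochberg adjustment over all 15179 genes) and its log2 fold change exceeded 0.58 in size. By this rule 5 of 41 were lower, or 12.2%, where 7.83% of all genes tested were. The 5 were the peroxins *Pex7* and *Pex14*, the matrix enzymes *Ehhadh* and *Nudt7*, and the membrane transporter *Abcd3*. Membrane protein genes *Pxmp4* and *Abcd4* were called higher, 4.88% of the 41 against 8.0% of all genes (1215 of 15179). Log2 fold changes were below 0 in 33 of 41 genes (80.5%, against 48.7% of all genes tested), and their median was -0.45 where that of all genes tested was 0.02. In 15 of the 41, all 3 livers labelled hep-/- lay below all 4 control livers, an order found in 15.0% of all genes tested. The reverse order was found in 3 of the 41 and in 13.6% of all genes. The count differed between tools and units. With RLE or upper-quartile scaling in edgeR it remained 5. With DESeq2, 8 of the 41 were called lower (10.2% of all genes), and with limma on the authors' FPKM values, log2(FPKM + 1), 19 were (15.9% of all genes). In the fit on FPKM the median log2 fold change of all genes was -0.14 and 24.5% of all calls were higher, against 50.5% in the edgeR test. Unit, test and filter all differ between these fits, and their part in the counts was not tested. Without the replicate 3 whose *B4galt1* goes against its label, 8 of 41 were called lower and none higher, beside 7.51% and 6.28% of all genes in that fit.

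**Figure D1:**
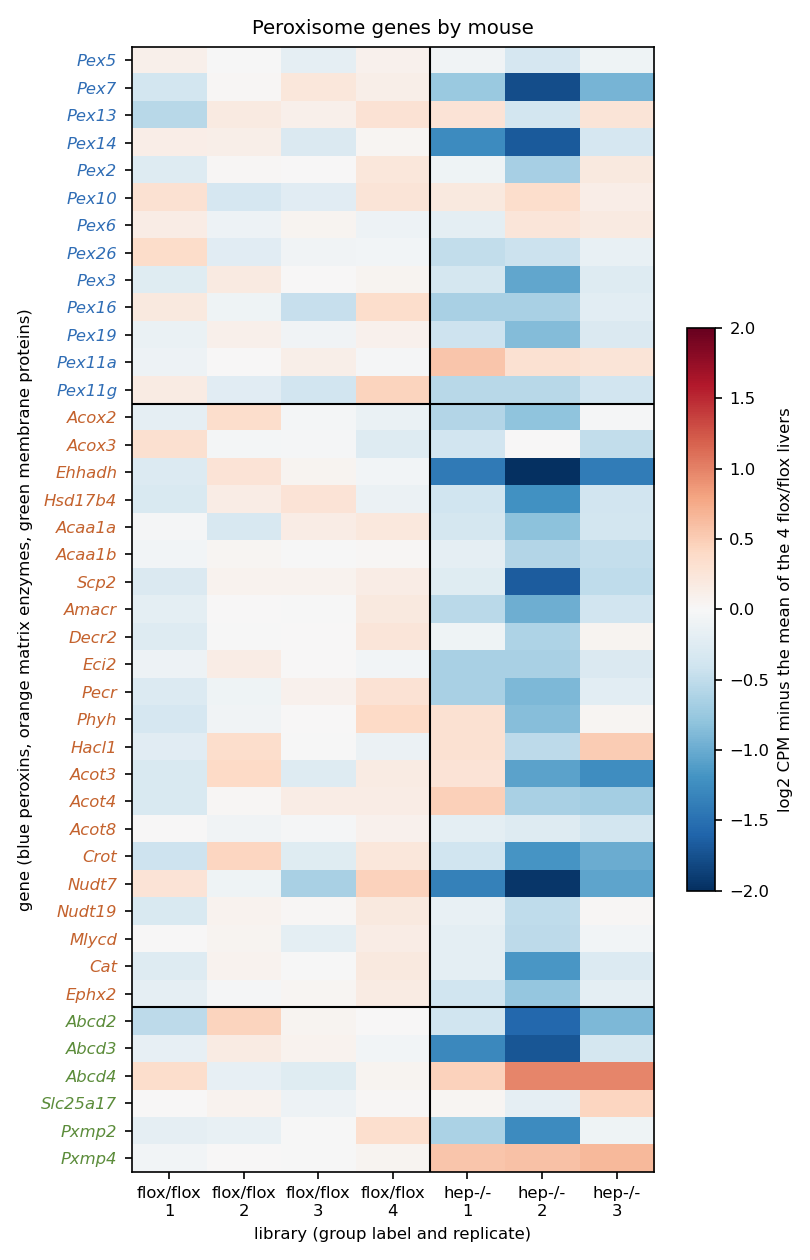
Heat map of the 41 peroxisome genes (rows, grouped as peroxins, matrix enzymes and membrane proteins) in the 7 livers (columns). Colour gives log2 CPM minus the mean of the 4 control livers, blue for lower and red for higher, limited to the range from -2 to 2. Most rows are blue in replicate 2 labelled hep-/-, which was the lowest of the 7 livers for 27 of 41 genes, while *Pex11a*, *Abcd4* and *Pxmp4* are red in all 3 livers of that label.

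Among the peroxins, the import receptor *Pex7* and the docking protein *Pex14* fell and the other 11 did not pass the test. *Pex7* (NCBI gene 18634) was at 43.6, 57.1, 65.5 and 60.5 CPM in control replicates 1 to 4 and at 33.4, 16.5 and 29.5 CPM in replicates 1 to 3 labelled hep-/-. Each of the latter lay below the lowest control. Its log2 fold change was -1.10 (standard error, SE, 0.25, adjusted p = 0.0168), a 2.14-fold decrease that was called in all 17 alternative fits, with log2 fold changes from -1.32 to -0.85. *Pex14* (NCBI gene 56273) gave 61.6, 61.3, 46.1 and 58.2 CPM in control livers and 23.7, 17.6 and 44.8 CPM in livers labelled hep-/-. Replicate 3 of that label came close to the lowest control. The log2 fold change of -0.99 (SE 0.29, adjusted p = 0.0395, edgeR) was no longer called in 6 of the 7 fits with 1 mouse removed, with log2 fold changes from -1.07 to -0.73 and adjusted p from 0.0525 to 0.102 in those fits, and it was called only without replicate 3 labelled hep-/-.

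The partners of these 2 peroxins in the same step did not pass. *Pex5*, the receptor for the common targeting signal, had a log2 fold change of -0.16 (SE 0.18, adjusted p = 0.55, edgeR), and *Pex13*, the other docking protein, had 0.05 (SE 0.24, adjusted p = 0.91, and -0.07 on log2(FPKM + 1)). The ratio of *Pex7* to *Pex5* CPM was 0.383 to 0.697 in control livers and 0.196 to 0.329 in those labelled hep-/-. That of *Pex14* to *Pex13* was 0.773 to 1.64 and 0.353 to 0.676. Neither ratio overlapped between the groups, and both were chosen after the values were seen and are given without a test. In the recycling machinery, the ligase genes *Pex2* and *Pex10* had log2 fold changes of -0.15 and 0.20, the ATPase *Pex6* 0.09 and its anchor *Pex26* -0.37, with adjusted p from 0.219 to 0.768 in these 4. *Pex10* was the least abundant in counts of all 41 genes, at 5.53 ± 1.24 CPM (SD, n = 4) in control livers.

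*Pex3*, *Pex16* and *Pex19*, the 3 genes of membrane protein insertion, had nearly equal log2 fold changes of -0.52, -0.52 and -0.51, short of both thresholds (adjusted p = 0.121, 0.133 and 0.0988, edgeR). For *Pex3* and *Pex19* the groups did not overlap. All 3 were called lower with limma on log2(FPKM + 1), where the median of all genes was lower too. The 2 division genes went opposite ways without passing. *Pex11a* was at 187, 203, 217 and 197 CPM in control livers and at 297, 247 and 241 CPM in livers labelled hep-/-. It was the one peroxin with all 3 of the latter above every control, and had the highest log2 fold change of the 13 (0.38, standard error 0.18, adjusted p = 0.171, edgeR). *Pex11g* was lower in all 3, with a log2 fold change of -0.53 (adjusted p = 0.111). Per kilobase of gene length, *Pex11a* was also the most abundant peroxin, at a mean of 86.1 CPM per kilobase in control livers where the median peroxin had 17.4.

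**Figure D2:**
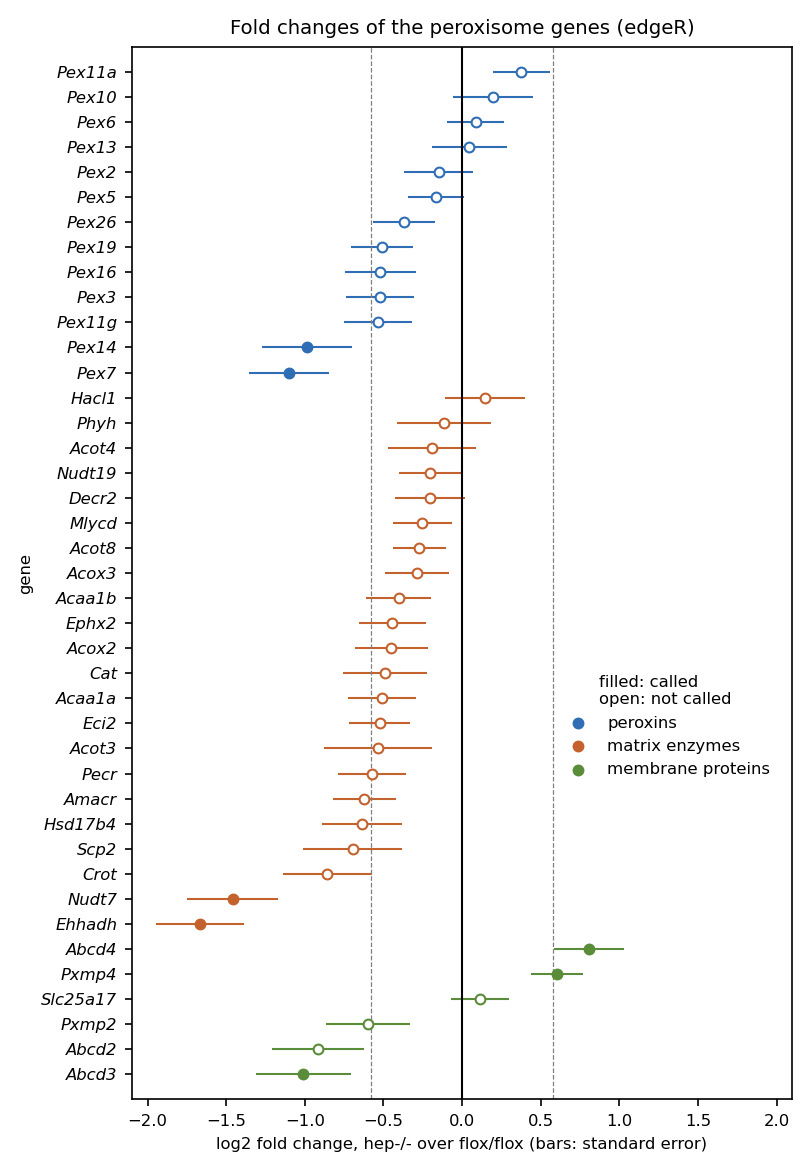
Log2 fold changes of the 41 genes, livers labelled hep-/- over control livers (x axis), with standard errors as bars, sorted within peroxins (blue), matrix enzymes (orange) and membrane proteins (green). Filled points were called, dashed lines stand at -0.58 and 0.58. Of the 22 matrix enzymes, 21 lie to the left of 0, and *Ehhadh* (-1.66) and *Nudt7* (-1.46) stand furthest left.

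Of the 22 matrix enzymes, 2 were called lower and none higher, and 21 had log2 fold changes below 0, with a median of -0.47. *Ehhadh* (NCBI gene 74147), the L-bifunctional enzyme of the inducible β-oxidation spiral, changed most of all 41 genes. Its levels were 1400.2, 2053, 1747 and 1627 CPM in control livers and 637, 336 and 642 CPM in livers labelled hep-/-, so that even the highest of the latter was under the lowest control. The log2 fold change was -1.66 (SE 0.28, adjusted p = 0.00572, edgeR), a 3.17-fold decrease, and the call held in all 17 alternative fits (-1.84 to -1.42). Per kilobase, *Ehhadh* was the 5th most abundant of the 41 in control livers and the 6th in the others.

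The remaining 7 genes of the β-oxidation spiral all had log2 fold changes below 0 and none was called. *Hsd17b4* encodes the D-bifunctional enzyme, which carries out the same steps for branched-chain and bile acid precursors. It was at 419, 578, 631 and 477 CPM in control livers and at 393, 223 and 399 CPM in the others. The groups did not overlap, though the gap was small, and the log2 fold change of -0.64 (SE 0.26) had an adjusted p of 0.107 (edgeR). *Ehhadh* CPM was 2.77 to 3.55 times that of *Hsd17b4* in control livers and 1.502 to 1.622 times in livers labelled hep-/-, a ratio that was closely alike in the 3 latter livers and was not tested, since the pair was chosen after the values were seen. The thiolase genes *Acaa1a* and *Acaa1b* had log2 fold changes of -0.51 and -0.40 (adjusted p = 0.121 and 0.194), without overlap between the groups in either. They are near copies whose reads the counting could have split, so their separate values are uncertain. The oxidases of branched-chain substrates, *Acox2* and *Acox3*, had -0.45 and -0.29 (adjusted p = 0.200 and 0.346), and the racemase *Amacr* had -0.62 (SE 0.20, adjusted p = 0.0573), close to the threshold and past it with DESeq2 (adjusted p = 0.0278).

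The 3 matrix enzymes with the highest length-scaled levels did not pass the test. *Phyh*, which starts the α-oxidation of phytanic acid, was the most abundant of the 41 per kilobase (1318 CPM per kilobase in control livers). Its values of 1507, 1821, 1921 and 2519 CPM and of 2355, 1057 and 1969 CPM overlapped almost entirely (log2 fold change -0.11, standard error 0.30, adjusted p = 0.815). *Scp2*, a sterol carrier whose long form is a thiolase, was at 1893, 2426, 2413 and 2547 CPM against 1957, 727 and 1617 CPM. Its lower mean came mostly from replicate 2 labelled hep-/- (log2 fold change -0.69, standard error 0.32, adjusted p = 0.149). Catalase, *Cat*, which breaks down hydrogen peroxide, had 1453, 1836, 1731 and 1998 CPM against 1523, 780.0 and 1445 CPM. The same liver stood apart (log2 fold change -0.49, standard error 0.27, adjusted p = 0.225). These 3 genes held the same first 3 places by level in both groups. *Hacl1*, the lyase after *Phyh* in α-oxidation, was the one gene of these 22 with a log2 fold change above 0 (0.15, adjusted p = 0.72, and -0.02 on log2(FPKM + 1)).

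Among the 7 genes that act on acyl-CoA and coenzyme A, *Nudt7* alone was called. *Nudt7* (NCBI gene 67528), a hydrolase that cleaves coenzyme A inside peroxisomes, was at 111, 86.8, 58.8 and 126 CPM in control livers and at 36.0, 23.9 and 44.5 CPM in livers labelled hep-/-. The controls spread over more than 2-fold, and the others were still below them all. Its log2 fold change of -1.46 (SE 0.29, adjusted p = 0.00977, edgeR) was a 2.75-fold decrease and was called in all 17 alternative fits. *Nudt19*, which encodes a related coenzyme A hydrolase, had -0.20 (adjusted p = 0.51). *Crot*, which passes shortened chains to carnitine for export, had -0.86 (SE 0.28, adjusted p = 0.0586) and was called in 7 of the 17 alternatives. The thioesterases *Acot3*, *Acot4* and *Acot8* had -0.54, -0.19 and -0.27 (adjusted p = 0.299, 0.666 and 0.281), and *Mlycd*, malonyl-CoA decarboxylase, had -0.25 (adjusted p = 0.379). The values of *Acot3* and *Acot4* rested on replicate 1 labelled hep-/-, where *Acot3* was at 81.1 CPM against 31.9 and 28.3 CPM in replicates 2 and 3 of that label. Without replicate 1 the log2 fold changes were -1.19 (adjusted p = 0.0224, edgeR) and -0.69 (adjusted p = 0.0597). *Acot3* and *Acot4* are close relatives, and their separate values carry the same uncertainty as those of the thiolases. Of the 3 auxiliary enzymes for unsaturated chains and enoyl-CoA, *Eci2* had -0.52 (adjusted p = 0.0858), *Pecr* -0.57 (adjusted p = 0.0914) and *Decr2* -0.21 (adjusted p = 0.551). *Ephx2*, a soluble epoxide hydrolase, had -0.44 (adjusted p = 0.175) with no overlap between the groups.

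The 6 membrane protein genes held both directions. *Abcd3*, the abundant fatty acyl transporter PMP70 (NCBI gene 19299), fell from 545, 685, 647 and 589 CPM in control livers to 251, 187 and 482 CPM in livers labelled hep-/-. Replicates 1 and 2 of that label lay well below replicate 3. The log2 fold change of -1.01 (SE 0.30, adjusted p = 0.0426, edgeR) was no longer called in 5 of the 7 fits with 1 mouse removed (log2 fold changes -1.03 to -0.75, adjusted p from 0.0702 to 0.11), and it was called without control replicate 1 and without replicate 3 labelled hep-/-. *Abcd2*, a transporter of very long-chain and polyunsaturated acyl-CoA, had a log2 fold change of -0.92 and was just short of the call (SE 0.29, adjusted p = 0.0527). *Pxmp2*, a channel protein, had -0.60 (adjusted p = 0.141), and *Slc25a17*, a carrier of coenzyme A and nucleotides, had 0.11 (adjusted p = 0.70).

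*Pxmp4* (NCBI gene 59038), a membrane protein of the PMP22 and PMP24 group, was at 83.4, 87.0, 85.3 and 89.4 CPM in control livers and at 127, 130.0 and 136 CPM in livers labelled hep-/-. Both groups were tight and far apart, with SDs of 2.53 (n = 4) and 4.28 CPM (n = 3). Its log2 fold change of 0.60 (SE 0.16, adjusted p = 0.0310, edgeR) was just past the fold threshold, and the call was lost in each of the 7 fits with 1 mouse removed (log2 fold changes 0.57 to 0.62, adjusted p from 0.0536 to 0.0958). *Abcd4* (NCBI gene 19300), a relative of *Abcd3* whose product is known mainly from lysosomal cobalamin transport, was at 11.9, 8.38, 7.94 and 9.69 CPM against 13.0, 18.5 and 18.4 CPM. The highest control came close to the lowest of the others. Its log2 fold change was 0.81 (SE 0.22, adjusted p = 0.0318), and the call was lost without control replicate 2, 3 or 4 or without replicate 2 or 3 labelled hep-/- (log2 fold changes 0.72 to 0.82, adjusted p from 0.0631 to 0.106). On log2(FPKM + 1) neither was called, with log2 fold changes of 0.45 and 0.53.

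**Figure D3:**
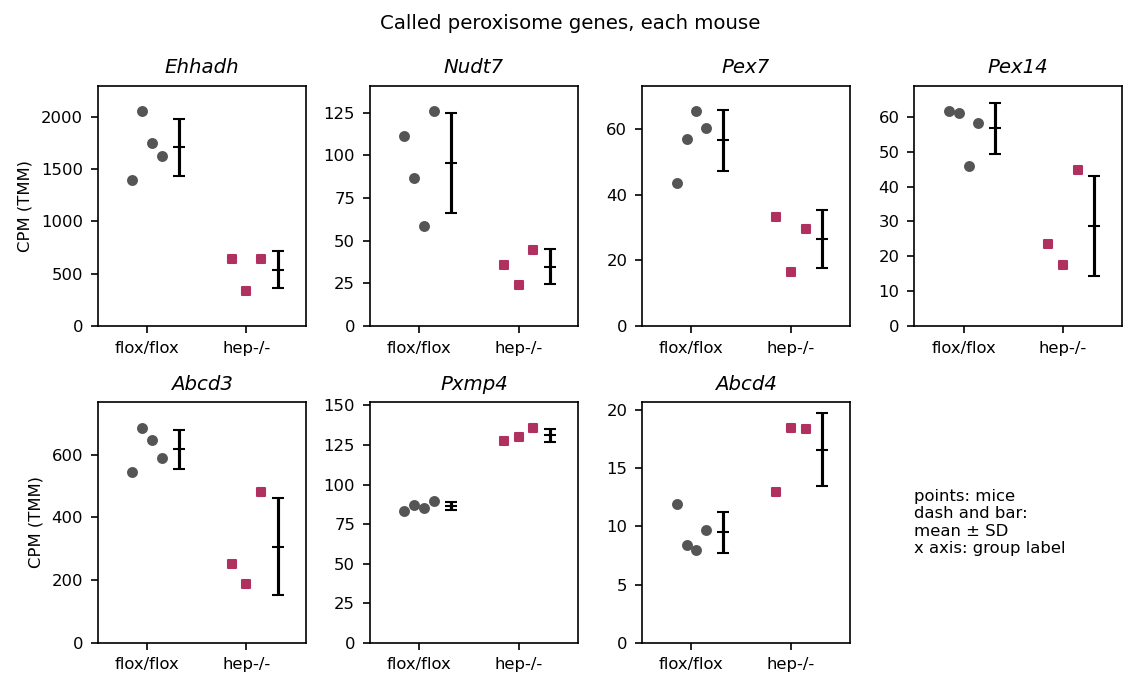
CPM (y axis, from 0) of the 7 called genes in each mouse, circles for controls and squares for livers labelled hep-/-, with the mean and SD beside the points. *Ehhadh*, *Nudt7* and *Pex7* show a clear gap between the groups, whereas for *Pex14* and *Abcd3* replicate 3 of the second group (44.8 and 482 CPM) lies near the lowest control.

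Peroxins and matrix enzymes were set against each other because one group builds the organelle and the other is its content. Peroxins were called lower in 2 of 13 (15.4%) and matrix enzymes in 2 of 22 (9.09%), beside 7.83% of all genes. The median log2 fold change was -0.37 for peroxins, -0.47 for matrix enzymes and -0.24 for membrane proteins. The order of the first 2 rested on single mice. Without control replicate 1 the medians of peroxins and matrix enzymes were -0.23 and -0.52, without control replicate 2 they were -0.45 and -0.42, and without replicate 2 labelled hep-/- they were -0.31 and -0.32. Averaged over genes, log2 CPM of peroxins was 5.66 ± 0.09 (SD, n = 4) in control livers and 5.33 ± 0.22 (SD, n = 3) in livers labelled hep-/-. For matrix enzymes it was 7.96 ± 0.13 (SD, n = 4) and 7.42 ± 0.32 (SD, n = 3). The mean of matrix enzymes exceeded that of peroxins by 2.15 to 2.40 log2 units in the controls and by 1.96 to 2.27 in the others. These ranges overlap, so that the balance of content to machinery was not separated between the groups. Membrane proteins averaged 6.19 ± 0.08 (SD, n = 4) and 5.98 ± 0.32 (SD, n = 3), and the median log2 fold change of these 6 was -0.05 without replicate 2 labelled hep-/- and -0.50 without replicate 3. Together the 41 genes took 1.56% ± 0.08 of all counts (SD, n = 4) in control livers and 0.963% ± 0.17 (SD, n = 3) in the others. With mitochondrially encoded counts left out of the total, the shares were 1.65% ± 0.08 and 1.20% ± 0.22.

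**Figure D4:**
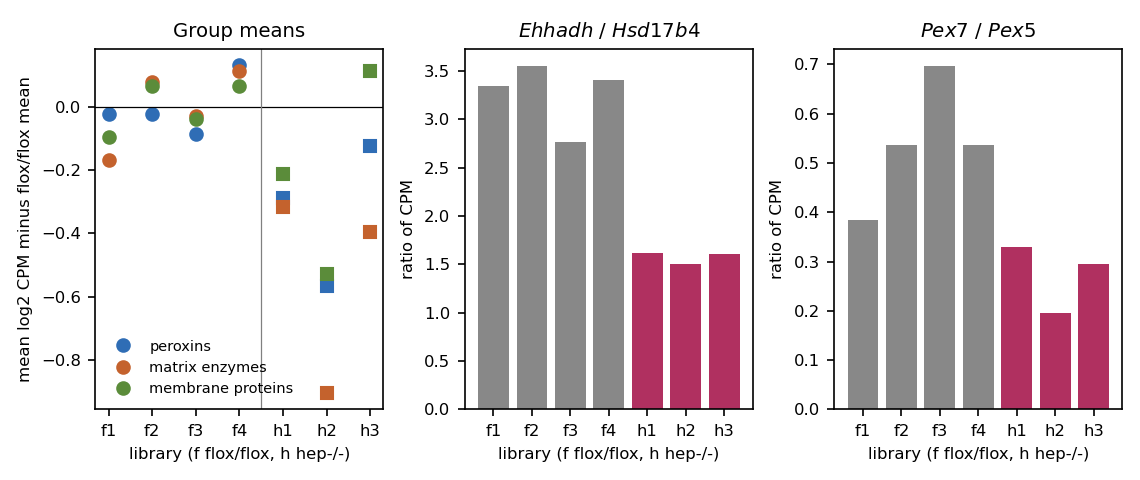
Left, mean log2 CPM of peroxins, matrix enzymes and membrane proteins in each liver, minus the mean of the 4 control livers (f1 to f4, h1 to h3 for the livers labelled hep-/-). Middle and right, bars for the ratio of *Ehhadh* to *Hsd17b4* CPM (1.502 to 1.622 in h1 to h3, 2.77 to 3.55 in f1 to f4) and of *Pex7* to *Pex5* CPM (0.196 to 0.329 and 0.383 to 0.697).

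The livers of each group were not alike. Replicate 2 labelled hep-/- was the lowest of all 7 for 27 of the 41 genes, 17 of them matrix enzymes and 6 peroxins, while it was the lowest for 26.5% of all genes tested. It lay below every control for 34 of the 41, and for 35.4% of all genes tested. Replicates 1 and 3 of that label each did so for 22 of the 41, and for 28.8% and 28.2% of all genes. Within the controls, replicate 1 was the lowest of the 4 for 27 of 41, and for 29.2% of all genes tested. Related members could also stand in another proportion to each other. *Pxmp4* CPM was 0.611 to 0.826 times that of *Pxmp2* in control livers and 1.24 to 2.69 times in the others, and *Pex11a* was 4.87 to 9.45 times and 10.6 to 14.6 times *Pex11g*. The ratios *Acaa1a* to *Acaa1b*, *Acot3* to *Acot4* and *Abcd3* to *Abcd2* overlapped between the groups. Like the earlier ratios, these pairs were chosen after the values were seen.

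Other peroxisomal genes were listed beside the 41, and their counts stand beside 7.83% of all genes called lower and 8.0% called higher. Of 11 further genes of biogenesis and quality control, 2 were called lower and none higher. *Lonp2*, the matrix protease, had a log2 fold change of -1.11 (SE 0.23, adjusted p = 0.0112, edgeR), and *Trim37*, a ubiquitin ligase known to act on PEX5, had -0.95 (adjusted p = 0.0444). Of 32 further enzymes and membrane proteins, 28 had enough counts to be tested, of which 4 were called lower and 2 higher. Among those that fell were *Acad11* (-0.99, adjusted p = 0.0413), the reductase *Dhrs4* (-0.88, adjusted p = 0.0131) and *Gnpat* (-0.73, adjusted p = 0.0321), which starts ether lipid synthesis. The acyltransferases *Acnat2* (1.41, adjusted p = 0.00600) and *Acnat1* (0.63, adjusted p = 0.0401), themselves close relatives, rose.

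Regulators of these genes were measured in the same livers. *Ppara* was at 257, 255, 309 and 274 CPM in control livers and at 240, 206 and 273 CPM in livers labelled hep-/-, which overlapped (log2 fold change -0.19, standard error 0.19, adjusted p = 0.515, edgeR). *Rxra*, which encodes its partner, fell from 383, 305, 294 and 321 CPM to 151, 128 and 162 CPM. No liver overlapped, and the log2 fold change was -1.15 (SE 0.20, adjusted p = 0.00605). *Pparg* was low in all livers, at 16.6, 28.7, 17.4 and 23.3 CPM against 13.3, 8.41 and 12.2 CPM (log2 fold change -0.92, standard error 0.25, adjusted p = 0.0311). These 2 were the called genes among 10 regulators. Of 21 known PPARα targets outside the peroxisome genes, 6 were called lower and none higher, with *Hadha* (-1.37), *Hadhb* (-1.33), *Cd36* (-1.32) and *Plin2* (-1.06) the largest decreases. Of the 21, 12 had log2 fold changes below 0 (57.1%, against 48.7% of all genes), and 9 were above 0 without a call. The highest of the 9 was *Cpt1b* (1.59, adjusted p = 0.0674, edgeR), which was barely expressed, with 5 to 24 counts per library. *Acot2* (0.97, adjusted p = 0.0563) and *Pdk4* (0.90, adjusted p = 0.145) came next. Mitochondrial β-oxidation had 7 of 16 genes called lower and none higher, *Etfdh* (-1.46), *Acads* (-1.37), *Hadha* and *Hadhb* leading, and some of its genes are also in the previous list. The peroxisomal spiral had 1 of 8 called lower (*Ehhadh*), with a median log2 fold change of -0.56 where the mitochondrial list had -0.50. Beside them, 7.83% of all genes were called lower.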

How the data were processed

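Livers of 4 *B4galt1* flox/flox mice (controls) and 3 mice labelled hep-/- (groups and replicate numbers from the sample labels) were compared. RNA was extracted with TRIzol and libraries were made with a VAHTS Universal kit. The authors deposited raw counts per gene, and FPKM values in which each count is scaled by 1 constant length for its gene and by the total of its library. The submitters' processing notes name fastp, HISAT2, HTSeq, DESeq2, R 3.2.0 and the GRCm39 build, without roles. By its methods the study used DESeq2 for differential expression and R for enrichment of gene terms. The counting rule for strand and shared reads is not given in the sources used here. No column of sample values was left unused.

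Genes were kept by filterByExpr (minimum count 10, minimum total count 15), scaled by TMM and compared by the quasi-likelihood F-test of edgeR 4.0.16 (R 4.3.3), with group as the one term and Benjamini-Hochberg adjustment over all genes tested. Calls needed an adjusted p under 0.05 together with a log2 fold change past 0.58 in either direction, the cutoffs of the study, which used DESeq2. Standard errors came from the F statistic. The length in CPM per kilobase is the one implied by FPKM. A floor of 3 counts corresponds to 0.069 to 0.0987 CPM. The study counts as many mice as there are libraries, so p-values measure the spread between mice, and no 2 libraries agreed within sampling noise in any of the 21 pairs. The scripts were first tested on simulated data.

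The 41 genes and all lists were chosen with earlier results of these data known. Values in every mouse were given by rule for called members, the peroxins with the highest and lowest log2 fold change, the 3 matrix enzymes with the highest length-scaled level, and *Ppara* and *Pparg*, with up to 4 called genes a direction from other lists. *Hsd17b4*, *Rxra*, *Dnm1l* and the pairs given as ratios were added after their values were seen. Tried besides were DESeq2 1.42.0, size factors by RLE or upper quartile, filters of at least 1 count in any or 10 in every mouse, limma 3.58.1 on log2 of FPKM plus 1 or 0.1 (FPKM of at least 1 in 3 mice, or all genes above 0), mitochondrially encoded genes left out, no fold change threshold, the replicate number as a block, and each mouse left out. Some genes of the lists are not reported here by name. Protein sequences were not used here, and coordinates are given for RefSeq promoters only, since their build differs from that of the files.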

Additional observations from a re-analysis of the deposited data

How the results depend on the processing

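The median log2 fold changes of peroxins, matrix enzymes and membrane proteins stayed below 0 under every alternative that was run, and no called gene changed sign. Genes near 0 that were not called could: *Pex13* was at -0.07 and *Hacl1* at -0.02 on log2(FPKM + 1). The 5 genes called lower remained called with DESeq2, the other normalisations, both filters, all 3 fits on FPKM and without mitochondrially encoded genes. With DESeq2, 4 matrix enzymes and 2 membrane proteins were called lower, and either filter on low counts gave 3 matrix enzymes and 2 membrane proteins. Of all genes, DESeq2 called 10.2% lower, the looser filter 5.93% and the stricter filter 8.88%. The looser filter left 1 member called higher, beside 6.35% of all genes. On log2(FPKM + 1) the counts called lower were 5 peroxins, 11 matrix enzymes and 3 membrane proteins, on log2(FPKM + 0.1) 5, 12 and 3, and on log2(FPKM + 1) without a filter 4, 6 and 1, with 0 members called higher in each. Of all genes these 3 fits called 15.9%, 17.8% and 4.74% lower and 5.14%, 5.51% and 1.05% higher. The last of these called 1330 genes in all, against 2404. Both filtered fits on FPKM also moved the median log2 fold change of all genes, to -0.14 and -0.18. The cause of these shifts was not tested.

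Leaving out each mouse in turn gave 1 to 2 peroxins, 2 to 4 matrix enzymes, 0 to 2 membrane proteins called lower and 0 to 1 members called higher, beside 3.16% to 7.51% of all genes called lower and 2.74% to 8.66% higher. Medians ranged from -0.49 to -0.23 for peroxins, from -0.58 to -0.32 for matrix enzymes and from -0.50 to -0.054 for membrane proteins. All genes called ranged from 885 (without control replicate 2) to 2396. Matrix enzymes reached 4 without replicate 1 labelled hep-/- (with *Acot3* and *Crot*) and without replicate 3 (with *Amacr* and *Pecr*).

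For samples with the same replicate number, correlations of their deviations were -0.423, -0.0967 and 0.0944. Control replicate 1 and replicate 2 labelled hep-/- gave 0.559. With so few mice, such correlations cannot show whether samples shared a batch. With the replicate number as a block, 1 peroxin, 0 membrane proteins and 0 members called higher were left, and 1267 genes in all (4.05% of all genes lower and 4.30% higher). *Ehhadh*, *Nudt7* and *Pex7* were called in that fit as well. Depth was not limiting for the 41 genes, since the lowest had 172 counts in its lowest library. With 4 and 3 mice and a common biological coefficient of variation of 0.301, the spread between mice sets the precision.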

Other observations

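Proteins known to enter peroxisomes through PEX7 are few, and the genes of 4 of them, *Acaa1a*, *Acaa1b*, *Phyh* and *Agps*, were measured here. None was called. Their log2 fold changes were -0.51, -0.40, -0.11 and -0.12, and that of *Pex7* was -1.10. RNA levels do not measure import of the proteins. The set was named after the value of *Pex7* was seen.

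Genes of peroxisome division outside the PEX11 pair were also measured. *Dnm1l*, the dynamin-related protein that cuts the membrane, was at 48.9, 51.3, 52.2 and 57.7 CPM in control livers and at 71.7, 73.1 and 67.7 CPM in livers labelled hep-/-. The groups did not overlap, and the log2 fold change of 0.43 did not pass (adjusted p = 0.0900, edgeR). *Mff* and *Fis1*, receptors for the dynamin-related protein, had -0.16 and -0.08 (adjusted p = 0.597 and 0.776).

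Of the marker lists of other liver cells, stellate (7 genes), cholangiocyte (5), lymphocyte (6) and neutrophil markers (3 tested of 4) had none called. Endothelial markers had 1 of 5 called lower (*Kdr*), and erythroid markers 1 of 5 lower (*Alas2*) and 1 higher (*Hba-a1*). Beside these counts, 7.83% of all genes tested were called lower and 8.0% higher. In lists this short, no call or a single call carries little information.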
